A study of Schmidtea mediterranea with 24 samples.

Results

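A set of 71 transcripts was more abundant in planarian tails injected with extracellular vesicles (EVs) than in tails injected with buffer, out of 28742 transcripts counted. The members were chosen by their measured levels. Levels are in CPM, the count of a transcript as a share of its library's total, scaled up by a fixed factor. CPM are not divided by transcript length, and scarce here means low in CPM. A member had a mean of at least 2 CPM over the 8 injected libraries and a mean under 500 CPM without injection. Its lowest EV library lay above its highest buffer library, and its EV mean was at least 25% above its buffer mean. The EV to buffer difference is therefore what chose the set, and it is given here as a description. Beyond these limits on level, the choice did not compare injected with uninjected tails, and it did not use transcript length directly.

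The animals were asexual *Schmidtea mediterranea* of the clonal line CIW4, wild type in all groups and starved for 7 days. EVs came from dissociated fragments 12 hours after amputation, were enriched by precipitation and size exclusion columns, and were injected into the tail with a fluorescent dextran at about the yield of a single animal per recipient. Controls received buffer with dextran or no injection, and injected animals low in dextran were discarded after 1 hour, a selection that uninjected animals did not undergo. Tails, without about 10% at the posterior end, were collected 24 hours after injection, with 5 pooled fragments in each of 4 biological replicates per group. The 12 libraries held 19621187 to 30903133 counts each.

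Planarians rebuild lost parts from dividing stem cells that lie throughout the body, and wounding sets off waves of gene expression in many of their tissues. EVs are membrane-bound particles that cells release and that can carry RNA, protein and lipid to other cells. An injection is itself a wound, so buffer-injected tails show the wound and the fluid without vesicles, and uninjected tails show neither. The files name transcripts by identifier only, so the members are given here without gene names or known roles, and neither the tail tissue nor its cell types could be checked against marker genes. In pooled tissue, a change in the number of cells of a type and a change in RNA per cell cannot be told apart.

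How a library is scaled decides how large the set looks beside its opposite. Of 14654 transcripts within the level limits, 543 (3.71%) had all EV libraries above all buffer libraries and 313 (2.14%) had the reverse. With the limit on fold these became 71 members and 38 transcripts of the opposite kind, lower with EVs. The members were 0.485% of transcripts within the level limits. With TMM scaling, which corrects totals for differences in composition, 366 and 449 transcripts did not overlap, and 52 and 55 met the rule and its opposite. Members were thus 65.1% of both sets together with column totals and 48.6% with TMM. The median log2 ratio of EV to buffer over transcripts within the limits was 0.015 with column totals and -0.0031 with TMM. The excess of members over their opposites is therefore tied to the scaling, while 51 of the 71 members met the rule under either scaling.

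Most members differed little between EVs and buffer, and many stood close to the limits. The EV to buffer ratio had a median of 1.33 and ran from 1.251 to 2.27, with 7 members at 1.5 or more and 25 under 1.3. The member nearest the fold limit, dd_Smed_v6_704_0_1, had a ratio of 1.251, and dd_Smed_v6_1392_0_1, just outside it, had 1.249. A further 65 transcripts met every other condition with EV means 20% to 25% above buffer. At the level limit, dd_Smed_v6_732_0_1 was inside at 2.02 CPM and dd_Smed_v6_17930_0_1 outside at 1.99 CPM. The lowest EV library exceeded the highest buffer library by less than 5% in 30 members. In dd_Smed_v6_1531_0_1 these libraries were almost level, at 55.3 and 55.2 CPM.

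The members were mostly scarce, and counting error is a sizeable part of their spread. Their mean over the injected libraries had a median of 7.89 CPM, and 29 members lay under 5 CPM. The smallest count of a member in an injected library was 30. Counting error alone corresponds to a coefficient of variation of 7.27% for the median member and 14.3% for the scarcest. Measured coefficients of variation had medians of 10.3% without injection, 11.2% with buffer and 9.25% with EVs, against 6.72%, 6.92% and 6.98% over transcripts within the level limits. Each library was sequenced in 2 runs, and 16 members met the rule in each run on its own, which are repeat readings of the same libraries. Leaving out any 1 of the 8 injected libraries eases the condition on overlap, and 108 to 152 transcripts then met the rule. Of the 71 members, 59 to 67 did so each time and 41 did so every time. Under TMM, in each run and without each injected library, 13 members always met the rule.

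The comparison with uninjected tails divided the members by where the 4 uninjected libraries lay. In 21 members the uninjected libraries were wholly below the buffer libraries, so that levels climbed in steps from no injection to buffer to EVs. In 34 members they overlapped the buffer libraries and lay below the EV libraries. In 11 they overlapped both injected groups, in 4 they overlapped the EV libraries and lay above the buffer libraries, and in 1 they lay between the groups. These positions depend on the setting. In run 2 alone, which had fewer counts than run 1, 19 members were level with buffer and 34 overlapped both groups. With TMM these were 28 and 19, in run 1 alone 29 and 18, and without uninjected replicate 4 they were 38 and 6. The 71 members were held fixed for this, though only 26 of them met the rule in run 2 alone. In run 1 alone 41 met it, and with TMM 51. Where EV and buffer libraries overlap each other, a changed position need not come from the uninjected libraries, and this was not tested. In 0 of 71 members did all uninjected libraries lie above all EV libraries, which held for 10.5% of transcripts within the level limits. Uninjected libraries lay wholly below buffer in 29.6% of members, against 21.7% of transcripts within the limits. They lay wholly below EVs in 78.9% of members against 24.9%, and wholly above buffer in 7.04% against 9.52%. Choosing members for low buffer and high EV values pulls these shares, so they describe the set and test nothing.

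**Figure D1:**
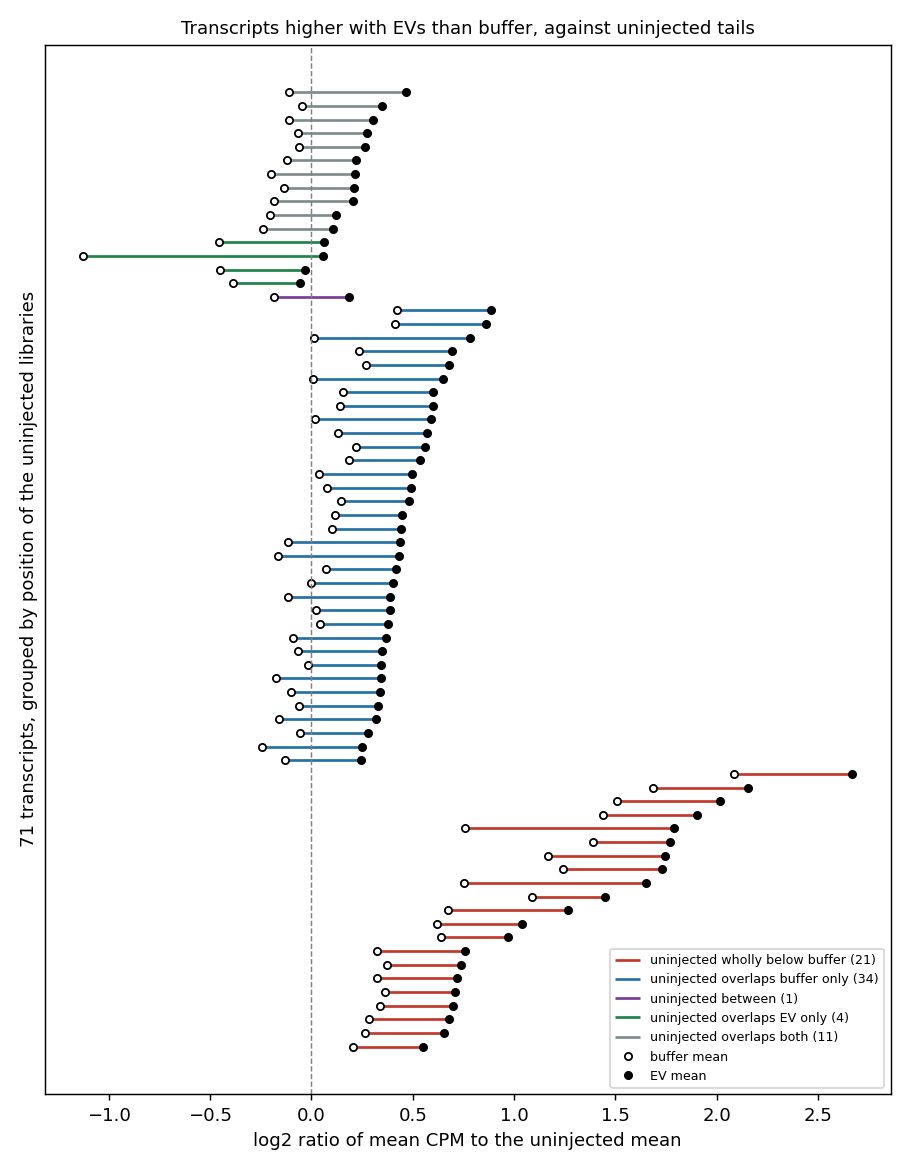
Each line is a member, from its buffer mean (open circle) to its EV mean (filled circle), as log2 ratios of mean CPM to the uninjected mean (dashed line at 0). Colours give the position of the uninjected libraries. The 21 members with uninjected libraries below buffer reach the largest ratios, while the 4 with uninjected libraries level with EVs have buffer means to the left of 0.

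A contrast that does not reuse the EV to buffer difference sets the mean of the injected groups, taken midway between EVs and buffer on the log2 scale, against the uninjected group. It was tested with edgeR's quasi-likelihood test in 1 model over the 12 libraries, and p-values were adjusted by Benjamini-Hochberg over all 21149 transcripts tested. By this test 35 of 71 members were higher in injected tails, or 49.3%. Among all transcripts tested the share was 15.2%, and among those within the level limits it was 20.6%. Lower levels in injected tails were called for 1 member, against 13.4% of all transcripts tested and 16% of those within the limits. The median log2 change was 0.24 over members and -0.00 over all transcripts tested. In the opposite set, lower with EVs, 4 of 38 transcripts were called higher and 10 lower, with a median change of -0.13. A rise with EVs alone moves the midpoint as well, so the contrast does not separate an effect of injection from one of EVs. The uninjected mean lay under the midpoint of the injected means in 65 members, and in 62.4% of transcripts within the limits.

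The members in which levels climbed in steps were picked out by their uninjected libraries, so their calls against those libraries are a description. All 21 were called higher in injected tails by edgeR. Their log2 changes ran from 0.34 to 2.35. Buffer means were 1.15 to 4.25 times the uninjected means, and EV means 1.26 to 2.04 times the buffer means. In 13 of the 21 the step from uninjected to buffer was larger than the step from buffer to EVs. EV means were at least 2 times the uninjected means in 12 of them, and buffer means in 8.

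The member with the highest CPM, dd_Smed_v6_2638_0_1 (1283 bases), was among them. It had 95.2, 71.1, 96.8 and 80.7 CPM in uninjected tails, 298, 268, 301 and 242 CPM with buffer, and 352, 374, 406 and 399 CPM with EVs. The 3 groups did not overlap, and most of the climb came with buffer. Its means were 85.9 ± 12.2, 277 ± 27.9 and 383 ± 24.9 CPM (SD, n = 4 each), and injected tails exceeded uninjected tails by 1.88 ± 0.08 on the log2 scale (SE, edgeR adjusted p = 1.27e-11). Scaled to length, its EV mean of 298 CPM per kilobase was also the highest of the 71, where the median was 11.2.

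Replicates were close together in dd_Smed_v6_9402_0_1 (1962 bases). It had 11.5, 12.4, 10.6 and 9.48 CPM without injection, 28.3, 29.8, 31.6 and 29.3 CPM with buffer, and 40.7, 39.0, 42.8 and 42.1 CPM with EVs. Every library of a group lay within a narrow band, and the bands were well apart. The injected against uninjected change was 1.62 ± 0.06 (SE, edgeR adjusted p = 3.85e-12). A like pattern held for dd_Smed_v6_585_0_1 (659 bases), with means of 14.4 ± 1.61, 34.2 ± 3.18 and 47.9 ± 3.47 CPM (SD, n = 4 each) and a change of 1.45 ± 0.07 (SE, edgeR adjusted p = 1.64e-10). In both, the rise from uninjected to buffer, 2.71 and 2.37 times, was larger than the 1.38 and 1.40 times from buffer to EVs.

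The 3 largest ratios of EVs to buffer of this kind belonged to transcripts of 702 bases or fewer. The transcript dd_Smed_v6_3606_0_1 (702 bases) had 15.8, 18.2, 18.5 and 14.7 CPM without injection, 33.3, 24.4, 37.4 and 18.6 CPM with buffer, and 76.0, 47.2, 54.4 and 54.3 CPM with EVs. Buffer-injected replicate 4 came close to the uninjected libraries, and EV-injected replicate 1 was the highest. Its EV mean was 2.04 times the buffer mean, against 1.69 times from uninjected to buffer, and the injected against uninjected change was 1.23 ± 0.16 (SE, edgeR adjusted p = 1.03e-05).

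The transcript dd_Smed_v6_6474_0_1 (395 bases) was lower in CPM, with 2.03, 1.80, 2.32 and 1.73 CPM without injection. It had 3.38, 3.79, 2.98 and 3.17 CPM with buffer, and 8.24, 6.71, 5.41 and 4.45 CPM with EVs. The EV libraries were the most spread, and the lowest of them lay not far above the highest buffer library. Injected tails exceeded uninjected tails by 1.16 ± 0.16 (SE, edgeR adjusted p = 2.69e-05). The third, dd_Smed_v6_5161_0_1 (420 bases), had means of 1.08 ± 0.0680, 1.72 ± 0.371 and 2.60 ± 0.352 CPM (SD, n = 4 each), with a change of 0.94 ± 0.16 (SE, edgeR adjusted p = 0.000249). Its highest buffer library, 2.168 CPM, almost met its lowest EV library, 2.172 CPM.

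Smaller steps were seen in dd_Smed_v6_2789_0_1 (1687 bases), where uninjected tails had 58.2 ± 2.42, buffer-injected tails 72.8 ± 7.66 and EV-injected tails 95.6 ± 8.58 CPM (SD, n = 4 each). Its buffer libraries reached from 63.2 to 79.4 CPM, above the uninjected maximum of 60.4 and below the EV minimum of 87.3. The change was 0.48 ± 0.06 (SE, edgeR adjusted p = 9.39e-06). At the other end, dd_Smed_v6_158_0_1 (418 bases), named after its values were seen, was scarce without injection at 0.739 ± 0.153 CPM. It reached 3.14 ± 0.923 CPM with buffer and 4.70 ± 0.344 CPM with EVs (SD, n = 4 each), the largest injected against uninjected change of the 71 at 2.35 ± 0.20 (SE, edgeR adjusted p = 7.73e-08).

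**Figure D2:**
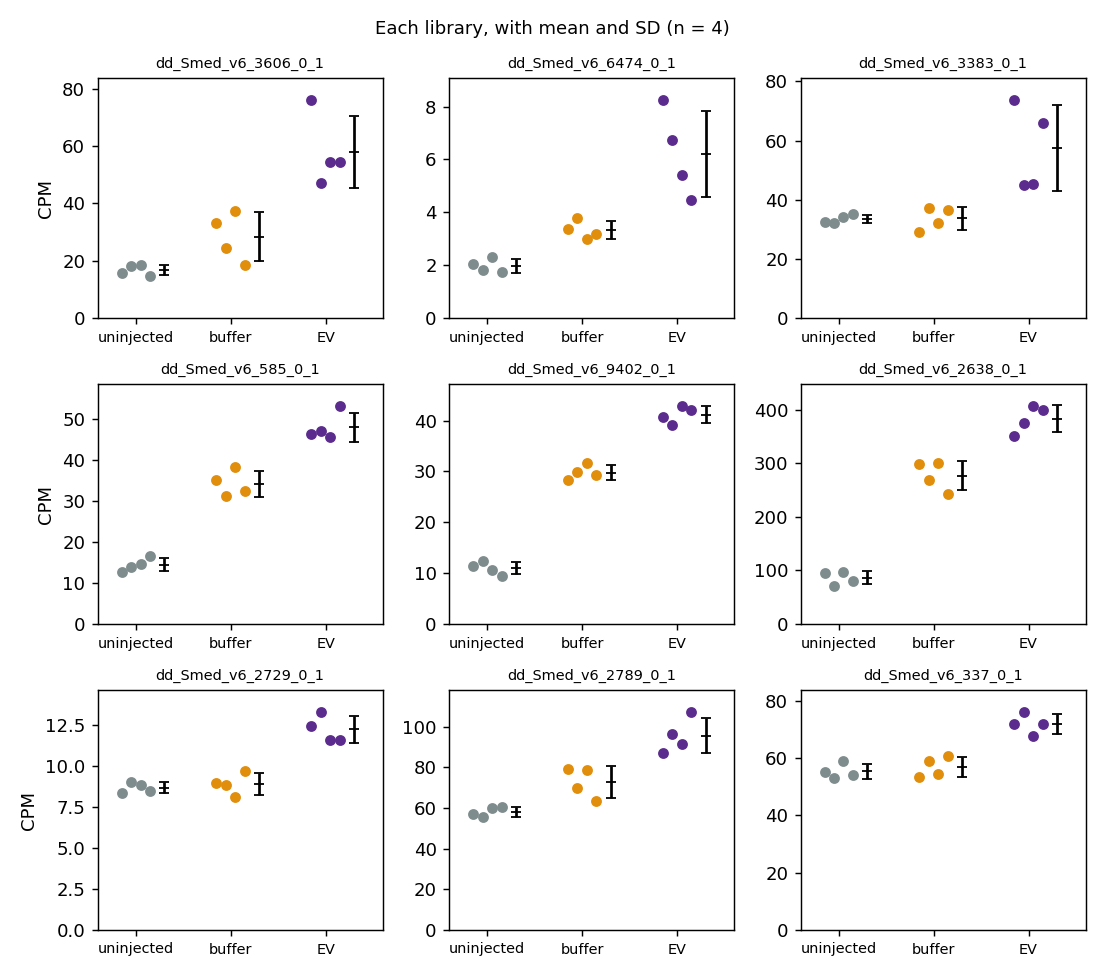
CPM in each of the 12 libraries (points, 4 per group) with mean and SD (bars, n = 4) for the 9 members called between EVs and buffer, each panel from 0 on its own linear scale. In 6 panels the uninjected points lie below the buffer points, and in dd_Smed_v6_3383_0_1, dd_Smed_v6_2729_0_1 and dd_Smed_v6_337_0_1 they lie level with them.

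In 34 members the uninjected libraries were level with buffer, although in run 2 alone only 19 members were so placed. Buffer means were 0.843 to 1.34 times the uninjected means, with a median of 1.01, and lay above the uninjected mean in 20 of 34. EV means were 1.18 to 1.85 times the uninjected means. In the contrast of injected and uninjected tails, 14 of the 34 were called higher in injected tails by edgeR, with log2 changes from 0.17 to 0.63, and 20 were not called. Uninjected libraries below EVs are what placed members here, so these calls too are a description, and 15.2% of all transcripts tested were called higher.

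The largest EV to buffer ratio among them was that of dd_Smed_v6_3383_0_1 (918 bases). It had 32.5, 32.0, 34.2 and 35.1 CPM without injection, 29.0, 37.3, 32.1 and 36.7 CPM with buffer, and 73.6, 45.0, 45.5 and 66.1 CPM with EVs. The uninjected libraries lay within the wider range of the buffer libraries, and EV-injected replicates 1 and 4 stood above the other 2 EV libraries. Its injected against uninjected change was 0.36 ± 0.11 (SE, edgeR adjusted p = 0.0233), and this call was lost with DESeq2 and without uninjected replicate 1, 2 or 3 (adjusted p up to 0.0716).

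Smaller and more even differences were seen in dd_Smed_v6_2729_0_1 (511 bases). It had 8.32, 9.02, 8.86 and 8.46 CPM without injection, 8.97, 8.84, 8.09 and 9.71 CPM with buffer, and 12.4, 13.3, 11.6 and 11.6 CPM with EVs. Only the EV libraries stood apart among these 12. The change was 0.22 ± 0.07 (SE, edgeR adjusted p = 0.0197), and it lost its call without uninjected replicate 1 (adjusted p = 0.0669) and in run 2 alone, where it was 0.04. For dd_Smed_v6_337_0_1 (574 bases) the libraries read 55.2, 52.8, 59.0 and 54.1 CPM without injection, 53.2, 59.1, 54.5 and 60.6 CPM with buffer, and 71.8, 76.0, 67.6 and 71.7 CPM with EVs. The lowest EV library again cleared the other 8. Its change of 0.17 ± 0.05 (SE, edgeR adjusted p = 0.0111) lost its call without uninjected replicate 2 (adjusted p = 0.0535).

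The highest CPM of these 34 was in dd_Smed_v6_2147_0_1 (619 bases), at 118 ± 15.5, 128 ± 14.4 and 162 ± 14.2 CPM (SD, n = 4 each). Its highest uninjected and buffer libraries, 140.4 and 140.7 CPM, were close to the lowest EV library at 149.5 CPM. The change was 0.24 ± 0.08 (SE, edgeR adjusted p = 0.0360), and it lost its call without any 1 of 8 libraries (uninjected replicates 1 to 3, buffer-injected replicates 2 to 4, EV-injected replicates 3 and 4; adjusted p up to 0.142) and in run 2 alone (adjusted p = 0.160). By contrast, dd_Smed_v6_3752_0_1 (430 bases) and dd_Smed_v6_20447_0_1 (663 bases) were not called, with changes of 0.28 ± 0.13 and 0.10 ± 0.14 (SE, edgeR adjusted p = 0.124 and 0.647). Their EV means were 2.67 ± 0.221 and 2.81 ± 0.247 CPM, against buffer means of 1.71 ± 0.193 and 1.85 ± 0.363 CPM (SD, n = 4 each).

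**Figure D3:**
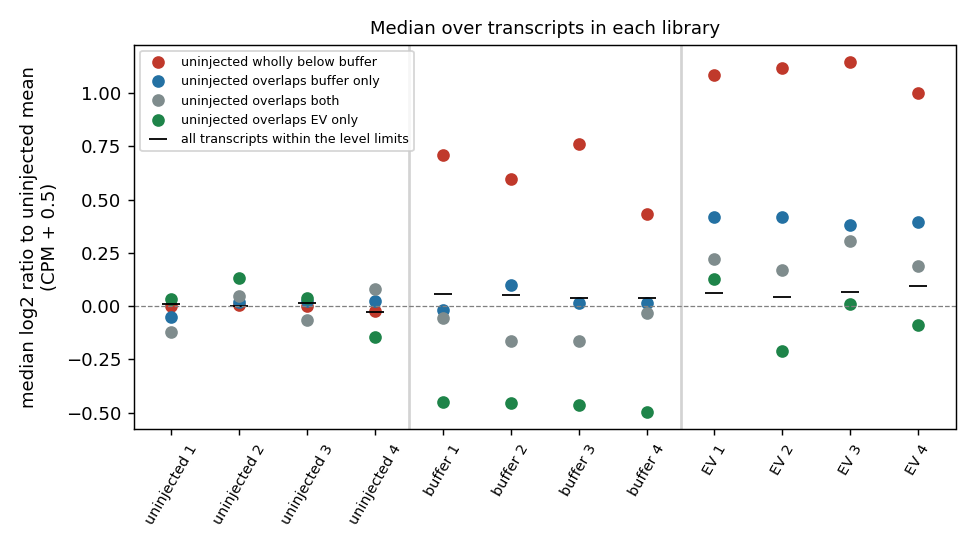
For each of the 12 libraries (x axis), the median over members of the log2 ratio of CPM + 0.5 to the uninjected mean (y axis), by position of the uninjected libraries, with all transcripts within the level limits as dashes. Members that climb in steps have medians of 0.43 to 0.76 in buffer and 1.00 to 1.14 in EV libraries, and those level with buffer have -0.02 to 0.10 and 0.38 to 0.42.

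The rule requires every EV library to lie above every buffer library, so raised medians in all EV libraries follow from the choice, and their size is given as a description. The median over all members of the log2 ratio to the uninjected mean was 0.51, 0.43, 0.43 and 0.40 in EV-injected replicates 1 to 4, and 0.03, 0.14, 0.07 and 0.07 in buffer-injected replicates 1 to 4. Over all transcripts within the limits these medians ran from 0.04 to 0.09 in EV and from 0.04 to 0.05 in buffer libraries. EV-injected replicate 1 was the highest of its group in 23 members, replicates 3 and 4 in 17 each and replicate 2 in 14. Among buffer libraries, replicate 4 was the lowest in 28 members and replicate 2 in 10.

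In 4 members the uninjected libraries lay above buffer and level with EVs, so that buffer-injected tails were the ones that stood apart. Buffer means were 0.458 to 0.764 times the uninjected means, and EV means 0.961 to 1.05 times. The largest ratio of EVs to buffer in the whole set, 2.27, belongs to dd_Smed_v6_2116_0_2 (226 bases, the shortest member). It had 27.2, 40.1, 37.9 and 22.5 CPM without injection, 21.1, 10.0, 15.3 and 12.0 CPM with buffer, and 57.5, 25.7, 23.6 and 26.1 CPM with EVs. EV-injected replicate 1 was above every other library, the other 3 EV libraries lay within the uninjected range, and all buffer libraries were below it. Without EV-injected replicate 1 its log2 ratio of EVs to buffer was 0.76 in place of 1.17. Its injected against uninjected change was -0.58 ± 0.22 (SE, edgeR adjusted p = 0.0563) and was called in 7 of 20 alternatives. These were without that library (-0.79, adjusted p = 0.00115), without buffer-injected replicate 1 (adjusted p = 0.0240), without uninjected replicate 4 (adjusted p = 0.0346), in run 2 alone (adjusted p = 0.0314), with limma-voom (adjusted p = 0.0348), with no count filter (adjusted p = 0.0460) and with the replicate number as a block (adjusted p = 0.0152).

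The other 3 of these members were scarcer. Levels of dd_Smed_v6_12693_0_1 (968 bases) were 5.97 ± 0.476 without injection, 4.36 ± 0.765 with buffer and 5.85 ± 0.780 CPM with EVs, and those of dd_Smed_v6_5916_0_1 (918 bases) were 4.09 ± 0.418, 2.98 ± 0.482 and 4.28 ± 0.731 CPM (SD, n = 4 each). Neither was called between injected and uninjected tails (edgeR adjusted p = 0.0567 and 0.153), though the former was called in 6 of 20 alternatives (adjusted p from 0.0338). These were without buffer-injected replicate 3 or 4, without EV-injected replicate 3, with limma-voom, with the filter of 1 CPM in 4 libraries and with the replicate block. The only member called lower in injected tails was dd_Smed_v6_9881_0_1 (612 bases), named because it is the only one. It had 5.57 ± 0.754, 4.26 ± 0.359 and 5.35 ± 0.575 CPM (SD, n = 4 each) and a change of -0.28 ± 0.10 (SE, edgeR adjusted p = 0.0482). The call was lost when EV-injected replicate 1, 2 or 4 or buffer-injected replicate 1, 2 or 3 was left out. It was also lost without uninjected replicate 1 or 2, with DESeq2, in run 1 alone, with no count filter and with the replicate block.

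In 11 members the uninjected libraries overlapped both injected groups, and in 1 they lay between. Their log2 changes between injected and uninjected tails ran from -0.11 to 0.15 and were not called, which the overlap that placed them here largely fixes. The example with the highest CPM, dd_Smed_v6_6464_0_1 (2628 bases), had 51.8, 60.9, 56.5 and 69.6 CPM without injection, 45.2, 52.3, 53.7 and 56.2 CPM with buffer, and 64.8, 58.3, 66.1 and 70.5 CPM with EVs. The uninjected libraries spread over nearly the whole range of the others. The same was seen in dd_Smed_v6_704_0_1 (666 bases), with 28.2 ± 4.50, 27.0 ± 2.84 and 33.8 ± 3.20 CPM, and in dd_Smed_v6_9607_0_1 (2246 bases), with 6.38 ± 1.21, 5.91 ± 0.539 and 7.88 ± 0.520 CPM (SD, n = 4 each). Near the level limit, dd_Smed_v6_22940_0_1 (567 bases) had 1.94 ± 0.620, 1.79 ± 0.245 and 2.67 ± 0.323 CPM, and dd_Smed_v6_39713_0_1 (2155 bases) had 2.50 ± 0.262, 2.18 ± 0.295 and 2.90 ± 0.175 CPM (SD, n = 4 each). The single transcript with uninjected libraries between the groups was dd_Smed_v6_8734_0_1 (480 bases), at 8.04 ± 0.464, 7.08 ± 0.217 and 9.14 ± 1.02 CPM (SD, n = 4 each), where the highest uninjected library, 8.39 CPM, all but reached the lowest EV library, 8.42 CPM.

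Set side by side, edgeR called 42 members higher with EVs than without injection (59.2%, against 13.9% of all transcripts tested and 18.8% within the level limits). It called 0 lower, against 11.9% and 14.8%. With buffer against no injection it called 18 members higher (25.4%, against 12.4% and 16.8%) and 5 lower (7.04%, against 9.6% and 11.7%). These comparisons share their libraries with each other and with the rule, which took members for high EV and low buffer values, so these counts are no test of the set. In the contrast the rule used, edgeR called 9 of 71 members higher with EVs, against 0.0426% of all transcripts tested and 0.0614% within the limits, and these 9 are all the transcripts it called in that direction. Lower levels with EVs were called for 4 of the 38 transcripts of the opposite set, against 0.0567% and 0.0819%. All 71 are listed in the authors' deposited table, which calls the same 9 of them, out of 10 transcripts it calls higher with EVs. Of the 9, 8 were among the 13 members that met the rule under every scaling, run and left-out library tried, but their calls by edgeR were less stable. All 9 lost their call without EV-injected replicate 1 (adjusted p 0.0596 to 0.0902) and without EV-injected replicate 3 (adjusted p 0.0515 to 0.140). Of the 9, 1 was called without uninjected replicate 3, 2 without uninjected replicate 2, buffer-injected replicate 1 or EV-injected replicate 4, and 3 without buffer-injected replicate 3 or 4. Without buffer-injected replicate 2 or EV-injected replicate 2, 6 were called, and 3 were in run 2 alone. The call of dd_Smed_v6_9402_0_1 held in 18 of 20 alternatives, that of dd_Smed_v6_3606_0_1 in 14, and that of dd_Smed_v6_6474_0_1 in 7 of 19.

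Transcript length was not a condition of the rule, and the members were short. Their median length was 666 bases, with lengths from 226 to 2628 bases. The median was 1152 bases in the opposite set and 1402 bases over transcripts within the level limits. Transcripts under 600 bases made up 43.7% of members (31 of 71), 18.4% of the opposite set (7 of 38) and 12.8% of transcripts within the limits. Put the other way, 1.65% of transcripts under 600 bases within the limits were members, then 0.606% from 600 to below 1000, 0.298% from 1000 to below 2000 and 0.146% at 2000 bases or more. The opposite set took 0.372%, 0.341%, 0.265% and 0.146% of the same bins. No test was made of these shares.

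**Figure D4:**
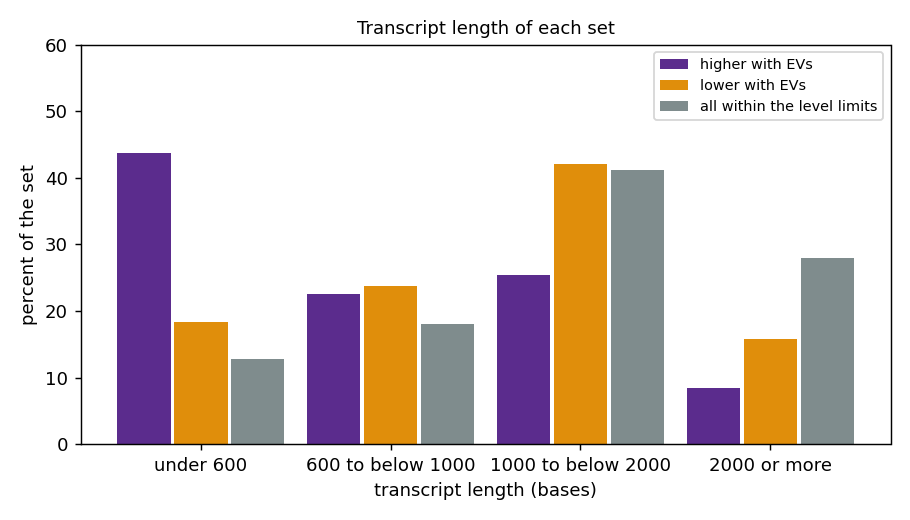
Percent of each set (y axis) by transcript length in bases (x axis) for the 71 members, the 38 transcripts lower with EVs and the 14654 within the level limits. The bin under 600 bases holds 43.7% of members against 18.4% and 12.8% of the others.

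Level and library values move with length and are given beside it. Short transcripts had lower CPM, with a median of 6.23 CPM under 600 bases and 34.8 CPM at 2000 bases or more. As CPM are not divided by length, these medians do not show that short transcripts were less abundant. With a minimum of 5 CPM, 42 members remained, and 40.5% of them (17 of 42) were under 600 bases. The share was 5.0% in the opposite set, which is 1 of 20 transcripts, and 9.31% of transcripts within the limits. Over all transcripts within the limits that were under 600 bases, the median log2 ratio of EVs to buffer in the edgeR fit was 0.03, with quartiles at -0.06 and 0.13. In the 3 longer bins the medians were -0.00, -0.01 and -0.00. In single libraries, the median log2 ratio to the uninjected mean of transcripts under 600 bases was 0.06 to 0.11 with EVs and 0.04 to 0.07 with buffer. The part of length, level or library make-up in the choice of members was not tested. Members under 600 bases were 10 of the 21 that climbed in steps, 16 of the 34 level with buffer and 3 of the 11 that overlapped both, with dd_Smed_v6_8734_0_1 and dd_Smed_v6_2116_0_2 as the remaining ones.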

How the data were processed

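RNA from 12 libraries (4 per group) was sequenced as pairs of 150 bases in 2 runs. The submitters' processing notes name FastQC 0.11.5, Bowtie2 2.3.1, edgeR 4.0.16 and the featureCounts program of Subread 1.6.3, and the design text adds BBDuk. How strand and multiply mapping reads were treated is not given in the sources used here, so counts of overlapping or near-identical transcripts are uncertain. The authors deposited raw counts per transcript, per run and for both runs together. Per the file headers, their deposited comparison table lists log2 fold changes, F as a score, p-values and false discovery rates. Runs were summed per library, and all 344904 sums equalled the deposited merged counts. Columns of other samples numbered 0.

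CPM used column totals. edgeR 4.0.16 in R 4.3.3 used filterByExpr (21149 of 28742 transcripts kept, all 71 members and all 38 of the opposite set among them), TMM and the quasi-likelihood test with no covariate, calling adjusted p under 0.05. Standard errors were derived from the F statistic. The common biological coefficient of variation was 7.62%. The test and the member rule were checked on simulated data. Named members are those called between EVs and buffer, plus the 3 largest ratios and 2 highest CPM of each position of the uninjected libraries, and exceptions are stated. The members, rule and lists were chosen with earlier results of these data known. Lists of marker genes could not be used, because the files hold no gene names and no annotation was used. Alternatives were TMM-scaled CPM, other limits, each run, each library left out, DESeq2 1.42.0 and its size factors, limma-voom (limma 3.58.1), other filters and a replicate block. The replicate numbers were not taken as pairs: deviations of same-numbered libraries correlated at -0.02 to 0.14.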

Additional observations from a re-analysis of the deposited data

Results flagged for a closer look

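CPM values of the 22 members named by rule were searched, group by group, for single libraries lying apart. There were 66 searches, and 1 of them found such a library. A chance rate of 1 in 20 would give about 3.3, but that rate is for unselected values. The rule chose these members by their EV and buffer values, so the rate does not apply to those groups. EV-injected replicate 1 had 57.5 CPM of dd_Smed_v6_2116_0_2, against 23.6 to 26.1 CPM in EV-injected replicates 2 to 4. The distance to the nearest library was 0.927 of the span of the 4 values.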

How the results depend on the processing

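The number of members, 71, was 7 with a minimum fold of 1.5, 115 with a minimum of 1 CPM, 42 with a minimum of 5 CPM, 113 in run 2 alone (26 of the 71 among them) and 108 to 152 with an injected library left out. It was 81 in run 1 alone (41 of the 71 among them) and 71 with no limit on the uninjected mean. Run 2 had fewer counts than run 1 in every library, and fewer libraries ease the condition on overlap. With members held fixed, those with uninjected libraries level with buffer, 34, were 19 in run 2 alone. Those overlapping both groups, 11, were 19 with TMM, 18 in run 1 alone, 34 in run 2 alone and 6 to 10 without an uninjected library, lowest without uninjected replicate 4. Those level with EVs, 4, were 2 in run 1 alone. The cause was not tested for these positions.

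Members called higher in injected tails, 35, ranged from 24 in run 2 alone to 35, and from 26 to 34 with a library left out. The number of members called lower, 1, became 0 with DESeq2 or run 1 alone and 3 with limma-voom. With the filter of 1 CPM in 4 libraries, the replicate block or run 2 alone it was 2. It was 0 to 2 with a library left out, and the members called lower were not the same in every setting. Over all transcripts, 3214 were higher in injected tails, and 2116 in run 2 alone. The replicate block gave 35 members and 3298 transcripts higher, and with unpaired numbers it is only another fit. Log2 changes of injected against uninjected tails of uncalled members turned sign for dd_Smed_v6_8734_0_1 (0.12 in run 1 alone), dd_Smed_v6_39713_0_1 (0.065 in run 1 alone) and dd_Smed_v6_22940_0_1 (-0.046 in run 2 alone). The cause was not tested. With a library left out, dd_Smed_v6_22940_0_1 ranged from -0.060 to 0.30, dd_Smed_v6_9607_0_1 from -0.075 to 0.128, dd_Smed_v6_39713_0_1 from -0.086 to 0.039, dd_Smed_v6_6464_0_1 from -0.148 to 0.0071 and dd_Smed_v6_704_0_1 from -0.058 to 0.130. Over the alternatives, named members called on this contrast kept their call in 204 of 220 checks and lost it in 16. Those not called stayed so with the same sign in 199 of 220 checks, gained a call in 13 and turned sign in 8. Between EVs and buffer, the 9 called members kept their call in 103 of 179 checks and lost it in 76, and the other named members stayed uncalled in 254 of 254. On that contrast, which the rule used, 14 members were called higher with the replicate block, of 18 transcripts called higher in all. With DESeq2 they were 23 of 49. The share of members under 600 bases, recomputed as a choice made after seeing the data, was 29.2% to 49.6%. Counts as low as 30 in an injected library limit what can be said of the scarce members. Counts of dd_Smed_v6_158_0_1 in uninjected libraries were lower still.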
